A study of Mus musculus with 9 samples.

Results

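Genes of the VEGF and angiopoietin pathways were followed by cell class in the mouse brain, as 10 of the 31053 genes listed. They were chosen by symbol for their place in these pathways. The ligands are Vegfa, Angpt1 and Angpt2, the receptors are Flt1, Kdr, Tek and Tie1, the co-receptors are Nrp1 and Nrp2, and Ptprb encodes a receptor phosphatase. RNA molecules were counted as unique molecular identifiers (UMIs) in single nuclei from pooled cortex and hippocampus of 9 male C57BL/6 mice, 1 library per mouse, in 3 groups of 3. All mice had received an adeno-associated virus (AAV) into the blood 8 weeks earlier. Its PHP.V1 capsid targets brain vessels, and its sCLDN5 (Ple261) promoter restricts expression largely to endothelial cells. The virus carried EGFP, a fluorescent control protein, in young mice (5 months, young AAV-EGFP) and in aged mice (19 months, aged AAV-EGFP). In the remaining aged mice (19 months, aged AAV-B3GNT3) it carried EGFP-P2A-B3GNT3, which adds a glycosyltransferase that extends mucin-type O-glycans. The study obtained its aged mice from the National Institute on Aging colony and its young mice from Jackson Laboratories. Age and source therefore cannot be told apart in comparisons with young mice. Nuclei were sorted as Hoechst-positive singlets.

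VEGF-A made by one cell acts on receptors of another, usually an endothelial cell. KDR (VEGFR2) is its main signalling receptor, whereas FLT1 (VEGFR1) binds VEGF-A tightly and signals weakly, and a secreted form of FLT1 acts as a decoy. Neuropilins, encoded by Nrp1 and Nrp2, present VEGF to these receptors and also bind class 3 semaphorins together with plexins, which guides axons in neurons. Angiopoietin-1, from cells around the vessel, activates the endothelial receptor TEK (TIE2) and steadies the vessel wall. Angiopoietin-2 can oppose it, TIE1 modulates TEK, and VE-PTP, the product of Ptprb, removes phosphate from TEK. In the brain, VEGF loosens the blood–brain barrier and angiopoietin-1 tightens it.

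The libraries held 47332047 to 79964605 UMIs. Of 77823 barcodes, 70248 nuclei were kept, and 66811 of them fell in clusters named from marker genes, with 10 classes large enough to test. These ranged from 21121 excitatory neurons to 325 macrophages. Brain endothelial cells (BECs) numbered 731 (52 to 122 per mouse), with 142743 to 304034 UMIs per mouse. Their 9 markers, such as Cldn5, summed to 8084 to 13072 UMIs per 1000000 UMIs of the class (CPM) and none was at 0, against 243 to 436 CPM in fibroblasts, 15.5 to 89.7 CPM in pericytes and 3.84 to 115 CPM in the other classes. Libraries shared 7 to 37 barcodes per pair. The mouse gene B3gnt3, whose transgene species was not given, had 7, 3 and 1 UMIs in BECs of young AAV-EGFP mice, 0 in each aged AAV-EGFP mouse, and 0, 4 and 4 in aged AAV-B3GNT3 mice, so it does not check the labels.

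Aged AAV-EGFP replicates 2 and 3 stood apart from the other 7 libraries, in vascular nuclei and in other classes. A pericyte sub-cluster led by Stc1, Tmem71 and Ggt1 held 232 nuclei, of which 213 (91.8%) came from these 2 libraries. It made up 82.0 to 85.7% of their pericytes and 0 to 8.33% of those of the other 7. A BEC sub-cluster led by Rasd1, Gch1 and Asb4 held 155 nuclei, 126 (81.3%) of them from the same 2 libraries, with 79.8 to 83.3% of their BECs against 0 to 21.1% elsewhere. Other classes held such sub-clusters too. Among astrocytes, 2 of the sub-clusters, led by D030055H07Rik and by Cst3, held 858 and 461 nuclei, with 88.6% and 81.8% of them from replicates 2 and 3. Together they made up 82.2 and 73.8% of the astrocytes of these libraries, 24.7% of those of aged AAV-EGFP replicate 1 and 0.0699 to 1.69% in the young AAV-EGFP and aged AAV-B3GNT3 mice. A fibroblast sub-cluster led by Cyp26b1 had 80.3% of its 132 nuclei from the 2 libraries, and an inhibitory neuron sub-cluster with Drd2 had 53.4% of 571, where they held 28.0% of all inhibitory neurons clustered. Calls in a class and the main BEC results are therefore also given without replicates 2 and 3. This alternative was chosen after the data were seen. Replicate 1 alone then stands for the group and is assumed to vary like the other mice. For changes compared between 2 classes, only the number called is given. The comparison of aged AAV-B3GNT3 with young AAV-EGFP mice holds no aged AAV-EGFP mouse. There the omission changes only the shared spread, the scaling and the gene filter, so a call that stays is not a check. The plot of vascular sub-clusters by library shows the split in vessels.

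**Figure D1:**
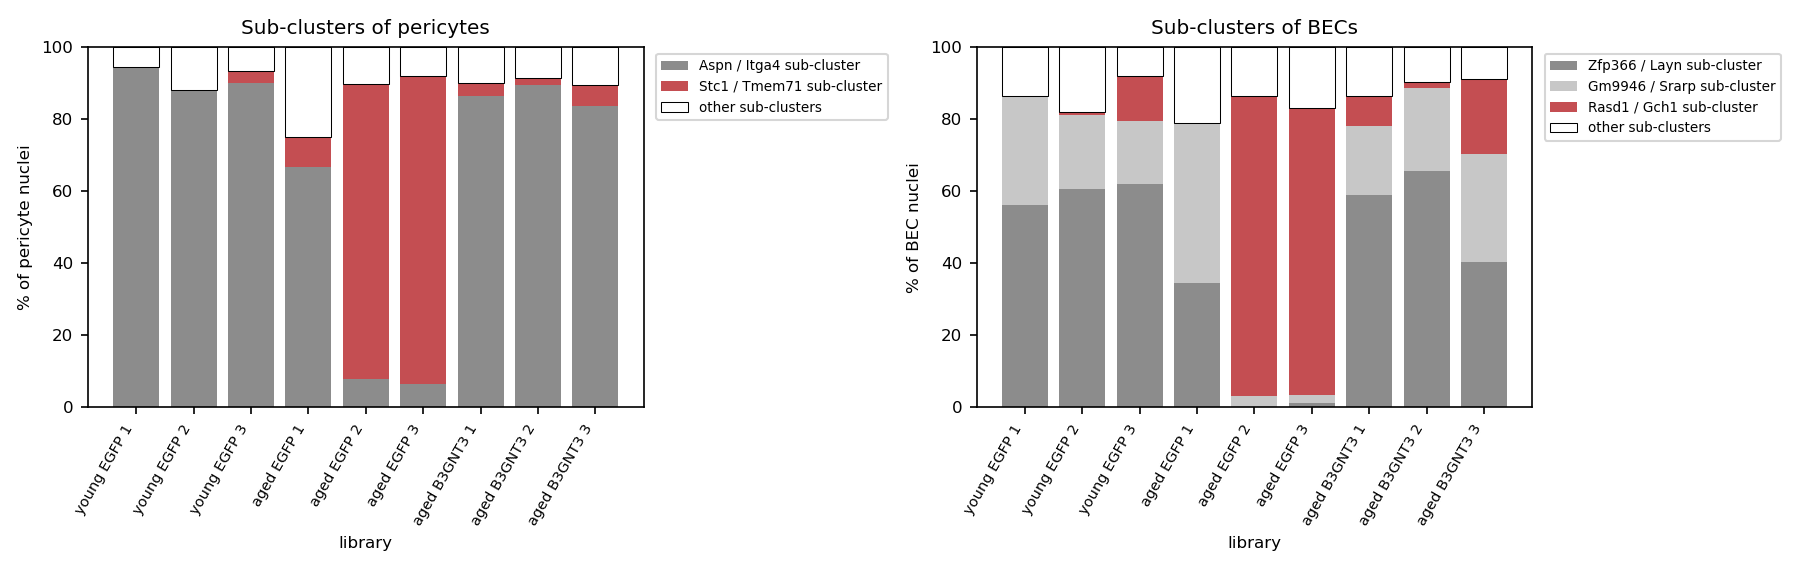
Share of BEC and pericyte nuclei (y axis, %) in each sub-cluster, for the 9 libraries (x axis). Colours are sub-clusters named by their leading genes, white is all others, and aged AAV-EGFP replicates 2 and 3 are filled mostly by sub-clusters that make up 0 to 8.33% of pericytes and 0 to 21.1% of BECs in the other 7 libraries.

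Ligands, receptors and co-receptors lay in different cell classes. The genes used to cluster nuclei left out all members and the other pathway genes, so the classes were not drawn from these values. Levels are CPM scaled by TMM (trimmed mean of M values), as mean ± SD over the 9 mice, and they are compared within a gene between classes only. Neighbouring classes in a gene's order were compared by an exact two-sided sign-flip permutation test over the 9 mice on log2(CPM + 10), adjusted over all 90 neighbour pairs. Of these pairs 15 differed, each with an adjusted p of 0.027 or 0.0469. The smallest p this design allows is 0.00390625. RNA released from broken nuclei gives every class a low level of each gene, so levels that lead a gene's order are also set against the level that free RNA would give in that class.

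Vegfa was highest in astrocytes, at 324 ± 54.9 CPM (8747 UMIs in all). Oligodendrocyte precursor cells (OPCs) came next at 193 ± 50.02 CPM and fibroblasts followed at 77.5 ± 6.54 CPM. Astrocytes were above OPCs in 9 of 9 mice, by 0.74 on the log2 scale, and OPCs were above fibroblasts in 9 of 9, by 1.18 (adjusted p = 0.027 for both, exact permutation test). These levels were 31.0 times the free RNA estimate in astrocytes and 25.3 times in OPCs. Astrocyte markers summed to 1712 to 2701 CPM in fibroblasts, beside 12941 to 18965 CPM in astrocytes. Their part in the fibroblast level of Vegfa was not tested. Excitatory neurons held 16.3 CPM.

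Angpt1 was highest in fibroblasts, at 174 ± 45.2 CPM, ahead of astrocytes at 63.0 ± 16.5 CPM in 9 of 9 mice (difference of 1.32 on the log2 scale, adjusted p = 0.027, exact permutation test). Pericytes followed at 48.9 ± 41.4 CPM, and this step from astrocytes did not pass the test. Angpt1 was at 31.8 times the free RNA estimate in fibroblasts, 11.8 times in astrocytes and 5.72 times in pericytes. Angpt2 was also highest in fibroblasts, at 44.1 ± 16.3 CPM, above BECs at 21.9 ± 16.5 CPM in 8 of 9 mice (difference of 0.83, adjusted p = 0.0469, exact permutation test). BECs and OPCs (18.95 ± 4.94 CPM) did not differ beyond their spread. Angpt2 was at 13.9 times the free RNA estimate in fibroblasts and 4.55 times in BECs, where it rested on 41 UMIs over 9 mice. It lies inside Mcph1 on the opposite strand (chr8:18690263-18741562, GRCm38), and Angpt1 (chr15:42424723-42676977) has an antisense gene, Gm17473.

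BECs held the receptors. Flt1 reached 4836 ± 2225 CPM in BECs, with pericytes next at 444 ± 353 CPM and fibroblasts at 114 ± 24.0 CPM, each step in 9 of 9 mice (differences of 3.61 and 1.59 on the log2 scale, adjusted p = 0.027, exact permutation test). The fibroblast level was 19.9 times the free RNA estimate, and the part in it of the BEC markers that fibroblasts carried was not tested. Secreted and membrane forms of FLT1 come from 1 gene and were not separated here. Kdr was at 167 ± 54.99 CPM in BECs and at 10.9 ± 9.12 CPM in fibroblasts, the next class. Tek was at 552 ± 172 CPM in BECs and at 7.90 ± 3.42 CPM in excitatory neurons. For Tie1 the BEC level was 100.1 ± 33.3 CPM and the next, in pericytes, 1.18 ± 2.38 CPM. Ptprb reached 1209.9 ± 183 CPM in BECs and 10.7 ± 2.49 CPM in OPCs. In all 9 mice BECs were above the next class for each of these genes, by 3.15 (Kdr), 4.93 (Tek), 3.27 (Tie1) and 5.88 (Ptprb) on the log2 scale (adjusted p = 0.027 each, exact permutation test). The BEC levels were 168 to 488 times the free RNA estimate. Flt1 in neurons, astrocytes, oligodendrocytes, OPCs, microglia and macrophages was at 0.37 to 0.90 times that estimate, so not above it.

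Stretches of 250 bases upstream of the start of 3 of these receptor genes are shown, since their RNA was highest in the same class. They come from the RefSeq promoter table for GRCm38.p6, which matched 7 of the 10 members. Capitals mark GGAA, the core that ETS-family factors bind, or TTCC where it lies on the other strand.
Flt1 (chr5:147726012-147726261, minus strand): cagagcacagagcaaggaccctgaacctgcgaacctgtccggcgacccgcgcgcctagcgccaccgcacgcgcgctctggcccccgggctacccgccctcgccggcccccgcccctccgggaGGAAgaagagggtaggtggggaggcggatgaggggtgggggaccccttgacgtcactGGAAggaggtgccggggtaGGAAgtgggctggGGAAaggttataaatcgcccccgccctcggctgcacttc
Kdr (chr5:75978456-75978705, minus strand): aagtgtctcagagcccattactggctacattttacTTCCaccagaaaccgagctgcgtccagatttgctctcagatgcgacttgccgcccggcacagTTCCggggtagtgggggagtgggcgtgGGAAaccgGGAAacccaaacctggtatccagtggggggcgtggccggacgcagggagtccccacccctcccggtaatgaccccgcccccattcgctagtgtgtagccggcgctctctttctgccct
Tek (chr4:94739039-94739288, plus strand): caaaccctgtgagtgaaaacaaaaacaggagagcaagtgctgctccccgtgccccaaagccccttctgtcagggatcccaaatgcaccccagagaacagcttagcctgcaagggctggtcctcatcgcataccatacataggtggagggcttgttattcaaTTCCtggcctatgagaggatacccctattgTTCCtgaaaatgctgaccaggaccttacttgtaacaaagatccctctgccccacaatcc
The letters GGAA, on either strand, stood 4 times in the Flt1 stretch, 4 times in that of Kdr and 2 times in that of Tek. Of 32851 promoters in the table, 93.4% held GGAA in the same window, with a median of 3, and 33.4% held 4 or more, so counts of 2 to 4 are common. The letters AGATAA, to which factors of the GATA family bind, stood in none of the 3 and in 9.99% of all promoters. A match describes letters only.

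The neuropilins were spread over more classes. Nrp1 was highest in macrophages, at 486 ± 89.4 CPM, above excitatory neurons at 191 ± 51.2 CPM in 9 of 9 mice (difference of 1.32 on the log2 scale, adjusted p = 0.027, exact permutation test). Fibroblasts (187 ± 118 CPM), microglia (185 ± 96.2 CPM) and BECs (172 ± 159 CPM) followed without steps that passed the test. Nrp1 was at 8.80 times the free RNA estimate in macrophages (where free RNA was put at 21.9 to 82.0% of UMIs), 10.7 times in excitatory neurons, 5.75 times in fibroblasts, 3.62 times in microglia and 3.59 times in BECs. Oligodendrocytes, the lowest, were at 28.5 CPM, which was 0.756 times the free RNA estimate. Nrp2 had no leading class: BECs, microglia and fibroblasts were at 95.5, 95.5 and 94.5 CPM, and no step in its order passed the test. These were 4.89, 4.73 and 7.32 times the free RNA estimate. Under 15 other settings the top class stayed the same in all 15 for the other 9 members and in 5 of 15 for Nrp2.

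**Figure D2:**
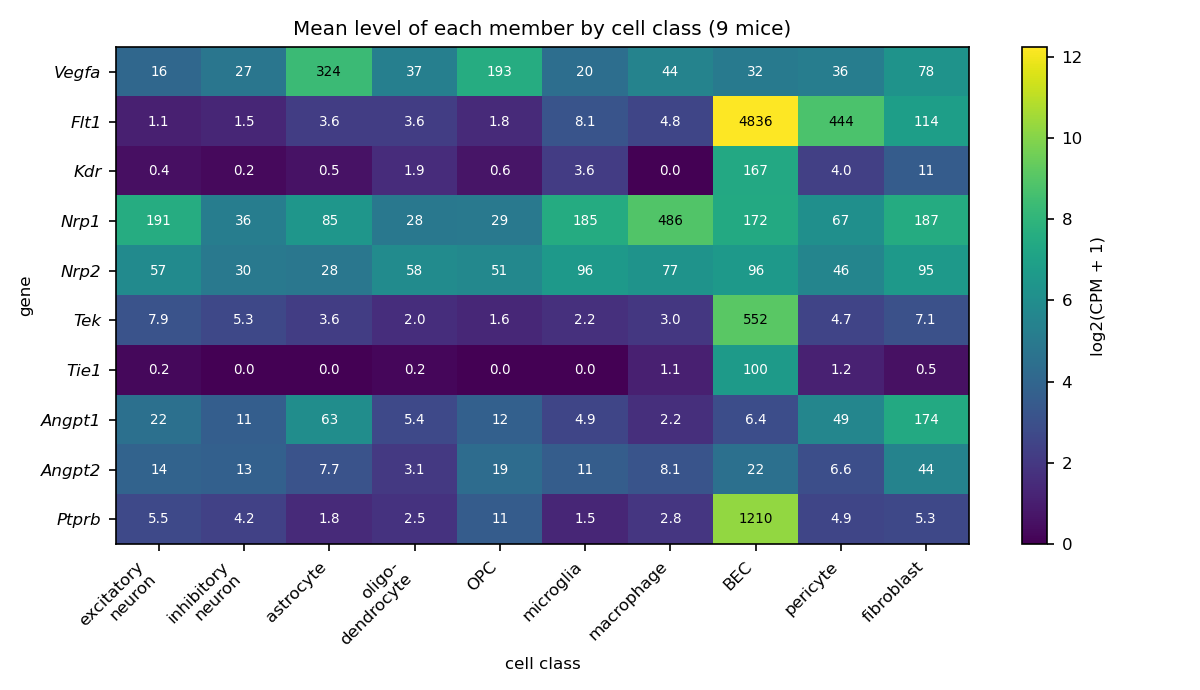
Mean level of each member (rows) in each of the 10 cell classes (columns) over 9 mice, coloured by log2(CPM + 1). Flt1, Kdr, Tek, Tie1 and Ptprb are brightest in BECs, Vegfa in astrocytes, Angpt1 and Angpt2 in fibroblasts and Nrp1 in macrophages, while Nrp2 is similar in BECs, microglia and fibroblasts.

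Among excitatory neurons, Nrp1 was highest in hippocampal and layer 6 sub-types (CPM without TMM scaling). Young AAV-EGFP mice had 735 CPM in CA3 neurons, 592 in dentate granule neurons, 432 ± 9.94 in layer 6 corticothalamic neurons and 380 ± 67.9 in CA1 neurons. The level was 74.3 CPM in upper-layer, 37.5 ± 5.09 in middle-layer and 9.29 in deep intratelencephalic neurons. Both fibroblast clusters carried Angpt1, but they differed in the rest. A cluster of 1221 nuclei led by Lama1, Fmod and Slc6a13 had Flt1 at 170 to 181 CPM and Angpt2 at 46.7 to 74.8 CPM over the 3 group means. A cluster of 553 nuclei led by Slc47a1 and Slc26a7 had 0 to 10.3 and 6.27 to 25.7 CPM, and its Nrp1 was at 208 to 563 CPM against 58.3 to 106 CPM. These sub-type values are descriptions.

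Group differences were tested with edgeR's quasi-likelihood test on UMIs summed per mouse and class, with Benjamini-Hochberg adjustment over all genes tested in a class and an adjusted p under 0.05 as the threshold. A member that reached the count filter in a class gave 1 test, and there were 62 such tests per comparison, 7 of them in BECs. In sums over a class, fewer cells and less RNA per cell cannot be told apart where a class is mixed. The 3 comparisons share samples and are not independent.

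With age (aged AAV-EGFP against young AAV-EGFP), Flt1 rose in pericytes, Nrp1 fell in oligodendrocytes, astrocytes and excitatory neurons, and Nrp2 rose in oligodendrocytes. These 5 of 62 tests (18 at an unadjusted p under 0.05, 7 called by DESeq2) stand beside 8.35% of all gene tests called over the 10 classes, a share near that of the members. Without aged AAV-EGFP replicates 2 and 3, 1 call was made, that of Nrp1 in oligodendrocytes, beside 0.303% of all, and 2 with AAV-B3GNT3 and 5 between aged AAV-B3GNT3 and young AAV-EGFP, beside 0.595% and 2.92%. More member tests reached the count filter in that fit, for example Vegfa in 9 classes rather than 8, so its calls are not out of 62. With all libraries, 0 of 62 tests were called with AAV-B3GNT3 against aged AAV-EGFP (8 at an unadjusted p under 0.05, 0 by DESeq2), beside 2.15% of all. Against young AAV-EGFP, aged AAV-B3GNT3 mice had lower Nrp1 in astrocytes and excitatory neurons, 2 of 62 tests (11 at an unadjusted p under 0.05, 3 by DESeq2), beside 1.52% of all. With age, all genes at an unadjusted p under 0.05 ran from 606 of 4690 in BECs to 4817 of 13229 in oligodendrocytes (edgeR). The member counts at an unadjusted p and by DESeq2 are not set against a share over the 10 classes, so they are not results about the members.

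None of the 7 members tested in BECs passed the test in any of the 3 comparisons. The background there was as low, with 0 of 4690 genes called with age (606 at an unadjusted p under 0.05), 11 (0.235%) with AAV-B3GNT3 and 0 between aged AAV-B3GNT3 and young AAV-EGFP.

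Flt1, the high-affinity VEGF receptor, was at 3476, 2820.0 and 4085 CPM in BECs of young AAV-EGFP mice. The aged AAV-EGFP mice had 4245, 8092 and 9209 CPM, and the aged AAV-B3GNT3 mice 4252, 3627 and 3721 CPM. All aged AAV-EGFP values lay above the young ones, and replicates 2 and 3 were above the other 7 libraries. The change with age was 1.07 ± 0.27 (SE, log2; 95% interval 0.49 to 1.66) with an adjusted p of 0.0886 in edgeR's quasi-likelihood test, and with AAV-B3GNT3 it was -0.89 (adjusted p = 0.168). Without aged AAV-EGFP replicate 1 both passed the test, at 1.28 (adjusted p = 0.00462) and -1.13 (adjusted p = 0.0127, edgeR). Without replicates 2 and 3 the change with age was 0.28 (adjusted p = 0.792) and that with AAV-B3GNT3 was -0.12 (adjusted p = 0.931, edgeR). The summed BEC markers averaged 9602, 10907 and 8676 CPM in BECs of the same groups in that order. Within BECs, the sub-cluster that fills replicates 2 and 3 had Flt1 at 9190 and 11574 CPM in them and at 6627 CPM in 12 nuclei of aged AAV-B3GNT3 replicate 3, and the sub-clusters led by Zfp366 and by Gm9946 had 3549 to 4814 and 3812 to 5572 CPM in the other libraries.

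Kdr, which carries most of the VEGF signal, was at 134, 156 and 159 CPM in young AAV-EGFP, 308, 170.5 and 161 CPM in aged AAV-EGFP and 119, 143 and 153 CPM in aged AAV-B3GNT3 BECs. Every aged AAV-EGFP mouse was above every mouse of both other groups, and replicate 1 was highest, yet the changes of 0.51 with age and -0.61 with AAV-B3GNT3 (log2) did not pass the test (adjusted p = 0.486 and 0.484, edgeR). Without replicate 1 they were 0.11 (adjusted p = 0.866) and -0.23 (adjusted p = 0.73), and without replicates 2 and 3 they were 1.02 (adjusted p = 0.242) and -1.14 (adjusted p = 0.154, edgeR). Kdr in BECs rested on 311 UMIs in all. Nrp1, its co-receptor, was at 239, 159 and 113 CPM in young AAV-EGFP, 573, 72.1 and 87.5 CPM in aged AAV-EGFP and 98.9, 131 and 70.9 CPM in aged AAV-B3GNT3 BECs. Aged AAV-EGFP replicate 1 decided its direction. The change with age was 0.48 (adjusted p = 0.784, edgeR) with that mouse and -1.14 (adjusted p = 0.0859) without it, and it was 1.70 (adjusted p = 0.0572) without replicates 2 and 3. The change with AAV-B3GNT3 was -1.23 (adjusted p = 0.51) with it and 0.37 without it. Nrp2 ranged from 65.5 to 119 CPM over the 9 mice and its groups overlapped, with changes of 0.27 (adjusted p = 0.754, edgeR) with age and -0.31 with AAV-B3GNT3.

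Tek, the angiopoietin receptor, was at 654, 411 and 463 CPM in young AAV-EGFP, 755, 413 and 290.1 CPM in aged AAV-EGFP and 781, 673 and 524 CPM in aged AAV-B3GNT3 BECs. The groups overlapped. Its change was -0.06 with age (95% interval -0.77 to 0.65, adjusted p = 0.962, edgeR) and 0.45 with AAV-B3GNT3 (adjusted p = 0.689). Tie1, its partner, was at 150.4, 95.02 and 113 CPM in young AAV-EGFP, 154, 78.7 and 64.5 CPM in aged AAV-EGFP and 69.2, 99.5 and 76.4 CPM in aged AAV-B3GNT3 BECs. It was lower in both aged groups on average, with values that overlapped the young ones, and neither change passed the test (-0.30 with age, adjusted p = 0.778, edgeR, and -0.52 for aged AAV-B3GNT3 against young AAV-EGFP). Ptprb, the phosphatase, was at 1135, 988 and 1101 CPM in young AAV-EGFP, 1182, 1409.8 and 1478 CPM in aged AAV-EGFP and 1349.8, 1286 and 960.1 CPM in aged AAV-B3GNT3 BECs. All aged AAV-EGFP values lay above the young ones, by 0.35 on the log2 scale (adjusted p = 0.542, edgeR). Without replicates 2 and 3 the changes with age were 0.55 for Tek, 0.34 for Tie1 and 0.12 for Ptprb (adjusted p = 0.58, 0.826 and 0.938), and Tie1 with AAV-B3GNT3 was at -0.88 (adjusted p = 0.438).

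The ligands were scarce in BECs and below the count filter there. Vegfa was at 26.2, 47.5 and 10.3 CPM in young AAV-EGFP, 62.9, 26.2 and 18.4 CPM in aged AAV-EGFP and 19.8, 23.9 and 54.6 CPM in aged AAV-B3GNT3 BECs. Angpt2 was at 6.54, 13.6 and 61.7, at 21.0, 6.56 and 23.0, and at 24.7, 23.9 and 16.4 CPM. Angpt1 had 13 UMIs in BECs of all 9 mice, with 16.3, 3.39 and 10.3, then 14.0, 0 and 0, then 0, 7.96 and 5.46 CPM, which is 0.77 times the free RNA estimate. The groups overlapped for each ligand, and single mice rest on 0 to 14 UMIs.

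**Figure D3:**
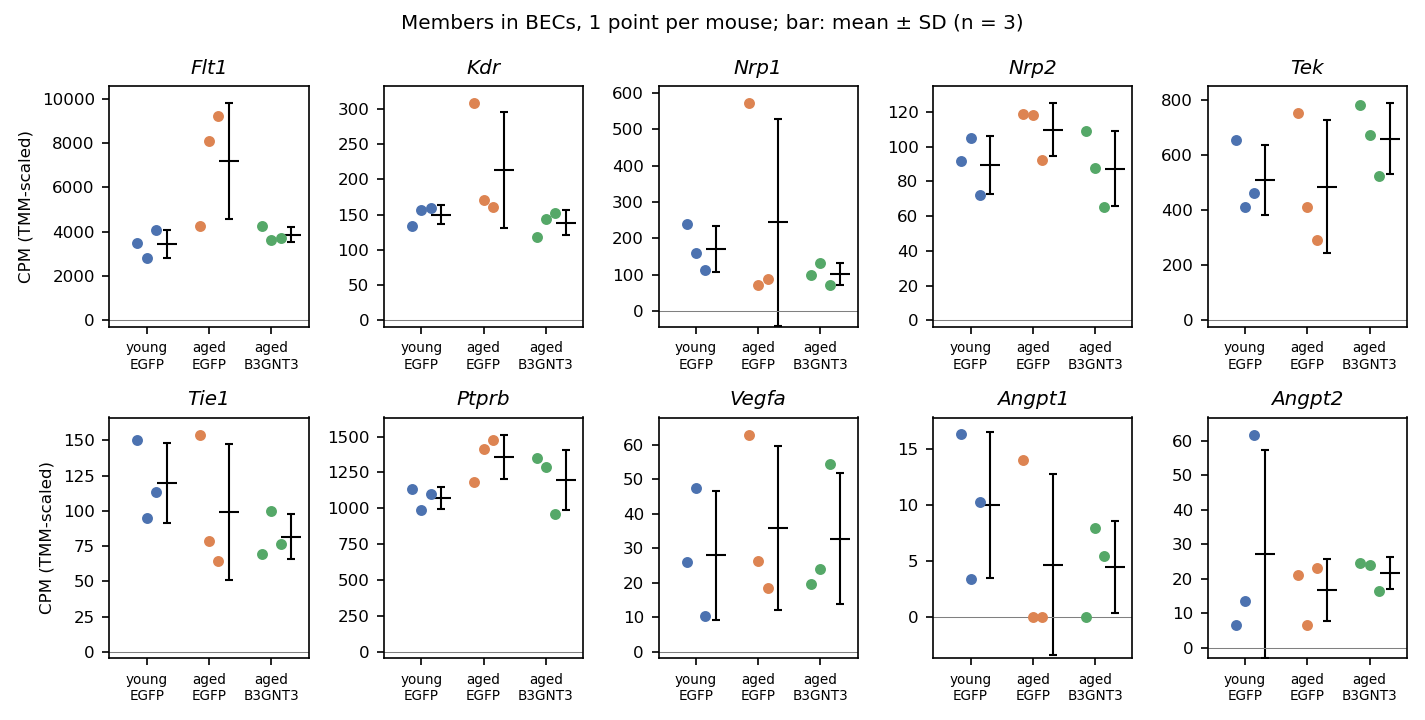
Level of each member in BECs (y axis, TMM-scaled CPM), 1 point per mouse, grouped from left to right as young AAV-EGFP, then aged AAV-EGFP, then aged AAV-B3GNT3, with mean ± SD (n = 3). Flt1 in aged AAV-EGFP mice runs from 4245 to 9209 CPM above the young range of 2820.0 to 4085 CPM, and 1 aged AAV-EGFP mouse is far above all others for Nrp1.

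Outside BECs, Flt1 changed with age in pericytes, the cells that wrap capillaries. Their level was 219, 179 and 233 CPM in young AAV-EGFP, 296, 932 and 1162 CPM in aged AAV-EGFP and 408, 321 and 243 CPM in aged AAV-B3GNT3 mice. All aged AAV-EGFP values lay above the young ones, with replicates 2 and 3 far above replicate 1. The rise was 3.96-fold (log2 1.98 ± 0.35 SE, 95% interval 1.25 to 2.72, adjusted p = 0.0127, edgeR) where 0.847% of genes tested in pericytes were called, and the change with AAV-B3GNT3 was -1.34 (adjusted p = 0.112). Without replicates 2 and 3 the change with age was 0.47 (adjusted p = 0.732). The sub-cluster led by Stc1, which fills those libraries, had 1127 and 1393 CPM, and the sub-cluster led by Aspn had 214 to 227 CPM in young AAV-EGFP mice, 474 CPM in aged AAV-EGFP replicate 1, 1023 CPM in 10 nuclei of replicate 2 and 275 to 519 CPM in aged AAV-B3GNT3 mice. Ptprb, Tek, Kdr and Tie1 together in pericytes were at 0.441 to 0.917% of their BEC level. That share of BEC Flt1 comes to 12.7 to 72.2 CPM, beside 174 to 1177 CPM observed (both without TMM scaling).

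Nrp1 fell with age in 3 classes. In excitatory neurons it was at 223, 254 and 280.2 CPM in young AAV-EGFP, 176, 195 and 132 CPM in aged AAV-EGFP and 141, 156 and 165 CPM in aged AAV-B3GNT3 mice. Neither aged group overlapped the young group. The fall was -0.59 ± 0.14 (SE, log2; adjusted p = 0.0198, edgeR) with age, and -0.71 ± 0.14 (adjusted p = 0.0189) between aged AAV-B3GNT3 and young AAV-EGFP, with backgrounds of 14.3% and 3.72% of genes called in this class. In astrocytes it was at 111, 117 and 120.1 CPM, then 89.1, 70.4 and 56.7 CPM, then 56.5, 71.8 and 72.8 CPM, in the same order of groups. Again neither aged group overlapped the young one, with -0.69 ± 0.17 (SE, log2; adjusted p = 0.0158, edgeR) and -0.79 ± 0.16 (adjusted p = 0.0189) beside backgrounds of 11.9% and 2.89%. Without aged AAV-EGFP replicates 2 and 3 the changes with age were -0.52 (adjusted p = 0.192) in excitatory neurons and -0.35 (adjusted p = 0.466) in astrocytes, while those between aged AAV-B3GNT3 and young AAV-EGFP were -0.71 (adjusted p = 0.00873) and -0.77 (adjusted p = 0.00416, edgeR). The 6 excitatory neuron markers summed to 269, 221 and 212 CPM in astrocytes of the 3 groups in that order, none at 0. Inhibitory neuron markers there went the other way, at 339, 459 and 447 CPM, and oligodendrocyte markers were at 471, 318 and 404 CPM. The part of such RNA in the astrocyte change was not tested. With free RNA subtracted, the astrocyte change with age was -0.81 (adjusted p = 0.0904), and that of aged AAV-B3GNT3 against young -0.75 (adjusted p = 0.152).

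In oligodendrocytes Nrp1 was at 39.0, 53.2 and 49.8 CPM in young AAV-EGFP, 16.8, 22.1 and 6.38 CPM in aged AAV-EGFP and 21.1, 27.4 and 20.4 CPM in aged AAV-B3GNT3 mice. Young mice were above all aged mice, and the change with age was -1.67 ± 0.32 (SE, log2; adjusted p = 0.0057, edgeR), in a class with 20.4% of genes called with age and 1.53% between aged AAV-B3GNT3 and young AAV-EGFP. These levels stood at or under the free RNA estimate, which fell too, from 49.7 CPM in young AAV-EGFP to 33.1 CPM in aged AAV-EGFP and 29.6 CPM in aged AAV-B3GNT3 mice, beside 46.3, 14.6 and 24.1 CPM observed without TMM scaling. After that estimate was subtracted, too few UMIs remained to test Nrp1 there, so this change was not separated from that of free RNA. Nrp2 went up in the same nuclei, from 51.2, 45.3 and 27.7 CPM in young AAV-EGFP to 49.99, 77.1 and 77.7 CPM in aged AAV-EGFP and 67.4, 60.8 and 66.5 CPM in aged AAV-B3GNT3 mice. The aged AAV-EGFP and young ranges overlapped. The rise with age was 1.64-fold (log2 0.71 ± 0.21 SE, adjusted p = 0.0348, edgeR), and it was 0.26 (adjusted p = 0.672) without aged AAV-EGFP replicates 2 and 3.

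The direction of Nrp1 was lower with age in 9 of the 10 classes, all but BECs, and lower in aged AAV-B3GNT3 than in young AAV-EGFP mice in 10 of 10, from -1.46 to -0.10 on the log2 scale. The free RNA estimate of Nrp1 was also below that of young AAV-EGFP mice in 10 of 10 classes in each aged group, for example at 33.3, 16.4 and 13.9 CPM in inhibitory neurons, where Nrp1 stood at 1.68 times it. All 10 estimates of a library rest on 1 Nrp1 share, taken over all its barcodes, so they are not 10 separate observations. Excitatory neurons held 44590 UMIs of Nrp1, beside 2722 in inhibitory neurons, so that share also carries their own fall. With free RNA subtracted, 7 classes could be tested. Nrp1 was then lower with age in 5 and lower in aged AAV-B3GNT3 than in young AAV-EGFP mice in 6, and inhibitory neurons turned to 0.18 and 0.52 (adjusted p = 0.923 and 0.816). Excitatory neurons were at -0.65 (adjusted p = 0.0191) and -0.72 (adjusted p = 0.0241, edgeR). The remaining classes did not pass the test. OPCs were at 29.5, 77.3 and 42.1 CPM in young AAV-EGFP, 36.7, 15.5 and 8.52 CPM in aged AAV-EGFP and 17.7, 18.6 and 19.4 CPM in aged AAV-B3GNT3 mice, about the level of free RNA (1.26 times). Microglia ranged from 86.7 to 371 CPM, with aged AAV-EGFP replicate 1 the highest, and macrophages from 363 to 590.5 CPM. Leaving out aged AAV-EGFP replicates 2 and 3 removes no mouse from the comparison of aged AAV-B3GNT3 with young AAV-EGFP. Without those libraries, Nrp1 was lower with age in 6 of 10 classes. It was then lower in aged AAV-B3GNT3 than in young AAV-EGFP mice in 10 of 10, of which 5 passed the test: astrocytes, excitatory neurons, microglia (-0.81, adjusted p = 0.035, edgeR), oligodendrocytes (-1.04, adjusted p = 0.00601) and OPCs (-1.47, adjusted p = 0.0187). Against aged AAV-EGFP replicate 1 alone, aged AAV-B3GNT3 mice were lower in BECs (-2.47, adjusted p = 0.00176) and microglia (-1.47, adjusted p = 0.00177, edgeR), where that mouse had the highest Nrp1 of all 9.

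Nrp1 was also tested in neuron sub-types, separated after the data were seen (CPM without TMM scaling, means given for young AAV-EGFP first, aged AAV-EGFP second and aged AAV-B3GNT3 last). CA1 neurons were at 380, 379 and 364 CPM and CA3 neurons at 735, 756 and 627 CPM, with changes of 0.06 and 0.13 with age (adjusted p = 0.872 and 0.827, edgeR). Layer 6 corticothalamic neurons went from 432 ± 9.94 to 342 ± 15.7 and 318 ± 22.6 CPM (-0.34 with age, adjusted p = 0.0626, and -0.59 for aged AAV-B3GNT3 against young, adjusted p = 0.0186, edgeR, with 1.55% of genes called). Middle-layer neurons went from 37.5 ± 5.09 to 15.1 ± 4.05 and 21.5 ± 5.30 CPM (-1.30, adjusted p = 0.00463, and -0.95, adjusted p = 0.045, edgeR, with 10% and 2.04% of genes called). Upper-layer neurons were at 74.3, 37.7 and 44.8 CPM (-0.97 with age, adjusted p = 0.0897, edgeR) and dentate granule neurons at 592, 458 and 489 CPM (-0.37, adjusted p = 0.271). Striatal-like neurons with Drd1 were at 57.7, 32.9 and 35.3 CPM (-0.81 with age, adjusted p = 0.048, edgeR, with 2.49% of genes called). Striatal-like neurons with Drd2 were at 73.0, 37.6 and 33.4 CPM (-0.94, adjusted p = 0.0755, edgeR). They numbered 1898 with Drd1 and 1688 with Drd2 among the 8336 inhibitory neurons, so that class is not made of interneurons alone. Neurons with Vip, an interneuron group, were at 49.4, 56.6 and 74.4 CPM (0.23, adjusted p = 0.666). Those with Lamp5 were at 37.7, 37.3 and 52.1 CPM (-0.04, adjusted p = 0.959), those with somatostatin at 30.4, 17.1 and 17.6 CPM (-0.80, adjusted p = 0.258) and those with parvalbumin at 18.8, 8.96 and 12.04 CPM (-1.24, adjusted p = 0.155, edgeR). Deep intratelencephalic neurons were at 9.29, 1.89 and 3.49 CPM, and Nrp1 was below the count filter there. Without aged AAV-EGFP replicates 2 and 3, the change with age was -1.12 in middle-layer neurons (adjusted p = 0.0788, edgeR) and -0.59 in neurons with Drd1 (adjusted p = 0.678), neither past the test. Aged AAV-B3GNT3 mice were then below young AAV-EGFP mice in layer 6 corticothalamic neurons (-0.58, adjusted p = 0.00635), middle-layer neurons (-0.94, adjusted p = 0.0121) and neurons with Drd1 (-0.85, adjusted p = 0.0152) and Drd2 (-1.21, adjusted p = 0.00677, edgeR), where 3.74%, 4.7%, 3.47% and 3.35% of genes were called. Whether these changes differ between sub-types was not tested. The 4 sub-types with the most Nrp1 (CA1, CA3, dentate granule and layer 6 corticothalamic neurons) held 28.5 to 34.4% of the UMIs of excitatory neurons in young AAV-EGFP mice, 26.6 to 31.4% in aged AAV-EGFP mice and 24.9 to 31.9% in aged AAV-B3GNT3 mice, and the part of these shares in the class result was not tested.

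**Figure D4:**
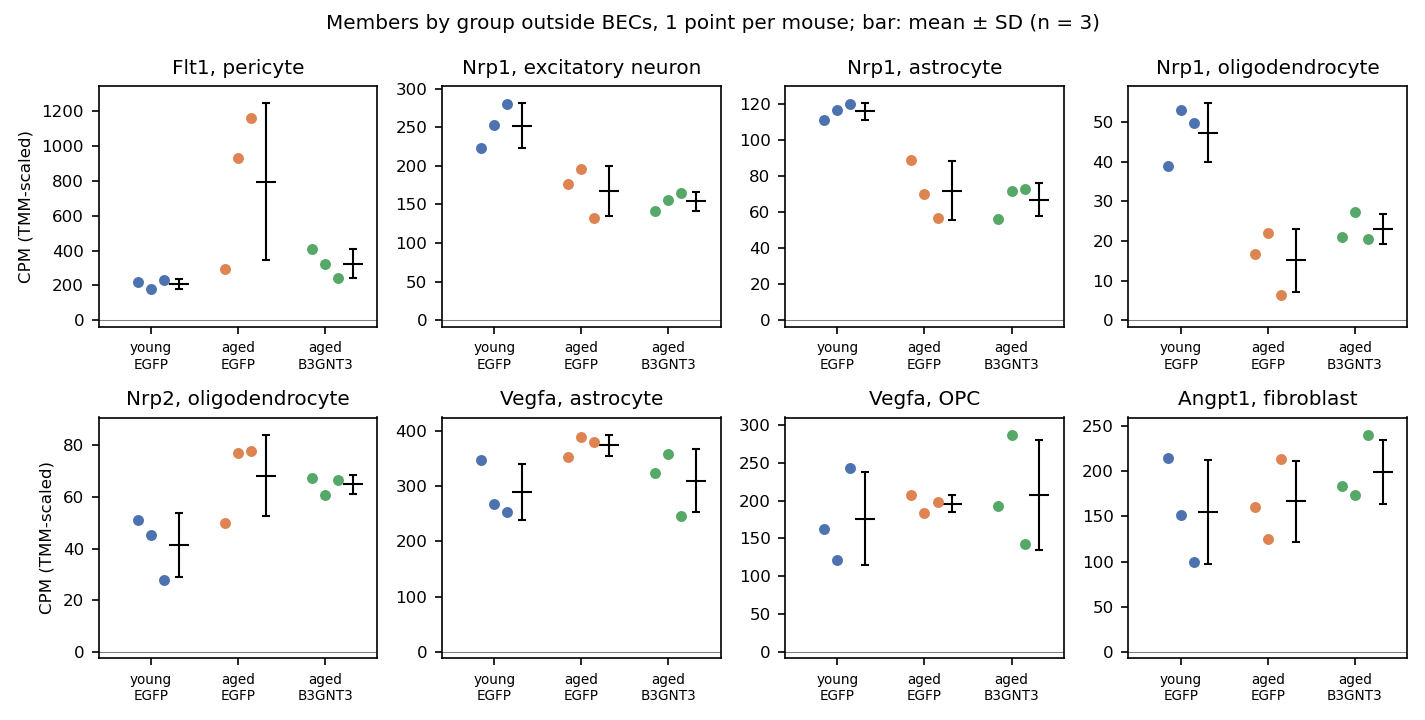
Level of members outside BECs (y axis, TMM-scaled CPM), 1 point per mouse in the 3 groups, with mean ± SD (n = 3). Nrp1 is lower in both aged groups than in young AAV-EGFP mice in excitatory neurons, astrocytes and oligodendrocytes, and Flt1 in pericytes is raised in 2 of the aged AAV-EGFP mice, at 932 and 1162 CPM.

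The ligands did not pass the test in their highest classes. Vegfa in astrocytes was at 347, 268 and 252 CPM in young AAV-EGFP, 353, 388 and 380.4 CPM in aged AAV-EGFP and 324, 357 and 246 CPM in aged AAV-B3GNT3 mice. The aged AAV-EGFP mice lay above the young ones, by 0.37 on the log2 scale (adjusted p = 0.149, edgeR), or by 0.31 without replicates 2 and 3 (adjusted p = 0.579), and the aged AAV-B3GNT3 mice overlapped the young ones. In OPCs Vegfa was at 163, 122 and 243, at 207, 184 and 197, and at 193, 287 and 143 CPM, with overlapping groups (0.17 with age, adjusted p = 0.766). Angpt1 in fibroblasts was at 214, 152 and 99.5 CPM in young AAV-EGFP, 160.4, 125 and 214 CPM in aged AAV-EGFP and 184, 174 and 240.4 CPM in aged AAV-B3GNT3 mice. Its groups overlapped too (0.13 with age, adjusted p = 0.836, edgeR). Angpt2 in fibroblasts was at 73.3, 47.4 and 54.9 CPM in young AAV-EGFP, 41.2, 15.7 and 41.0 CPM in aged AAV-EGFP and 41.6, 52.8 and 28.6 CPM in aged AAV-B3GNT3 mice. The aged AAV-EGFP mice were below the young ones, by a change of -0.84 that did not pass the test (adjusted p = 0.186, 4.63% of genes called). Angpt1 in pericytes ranged from 0 to 130.0 CPM, and aged AAV-EGFP replicate 2, at 0, had no UMI of it.

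**Figure D5:**
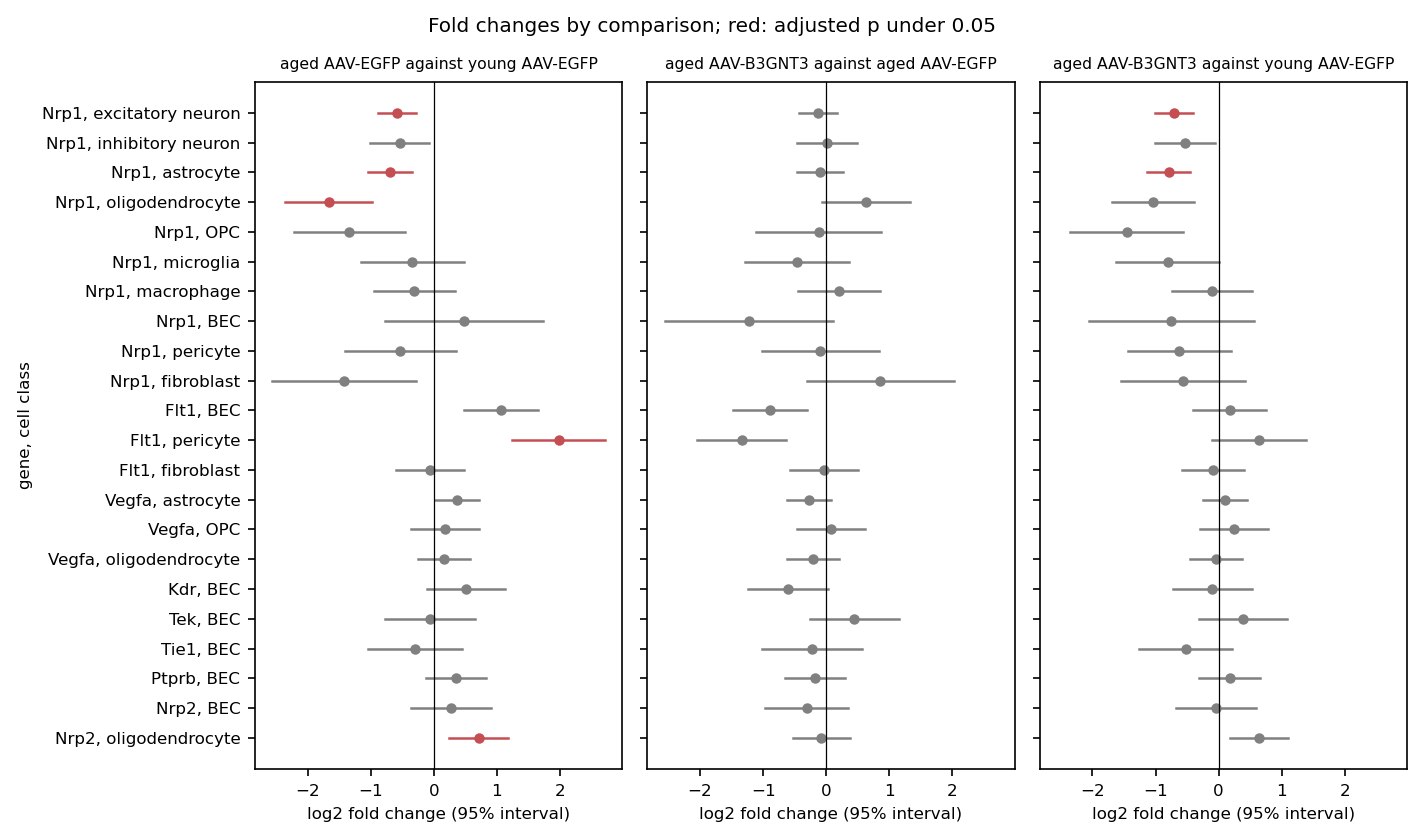
Log2 fold change with 95% interval (x axis) of members by class (y axis) in the 3 comparisons. Red marks an adjusted p under 0.05 in edgeR's quasi-likelihood test, as for Flt1 in pericytes (1.98) and Nrp1 in oligodendrocytes (-1.67) with age, and no member is red for aged AAV-B3GNT3 against aged AAV-EGFP.

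Other genes of the pathway came from 5 lists of 46 genes in all. The other ligands and receptors of the family, such as Vegfc and Flt4, gave 22 tests with 0 calls in each comparison, and 24 tests with 0 calls without aged AAV-EGFP replicates 2 and 3. Their levels placed Vegfc in fibroblasts (87.7 CPM) and BECs (74.6 CPM), Vegfd in BECs (49.4 ± 25.9 CPM) and fibroblasts (33.0 ± 9.62 CPM), and Flt4 in BECs (68.0 CPM). These steps between classes were not tested. Genes of oxygen sensing upstream of Vegfa gave 53 tests. With age 1 rose (1.89%, beside 8.35% of all gene tests called over the 10 classes), Vhl, which marks HIF proteins for breakdown, in oligodendrocytes (0.72, or 0.40 with an adjusted p of 0.509 without replicates 2 and 3), and against young AAV-EGFP mice Egln2 was higher in astrocytes of aged AAV-B3GNT3 mice (0.96, adjusted p = 0.0351, edgeR). This too is 1.89% of the tests, beside 1.52% of all gene tests and 2.89% in astrocytes. Signalling genes below the receptors gave 88 tests, of which 3 fell with age (3.41%, below the 8.35% of all gene tests): the adaptor Grb14 in astrocytes (-1.51, adjusted p = 0.00529, edgeR) and Plcg1 (-0.44) and Shb (-0.54) in excitatory neurons. None of these 3 was called without aged AAV-EGFP replicates 2 and 3 (adjusted p = 0.235, 0.40 and 0.235), with the same sign for each. Endothelial genes known to answer to VEGF gave 18 tests and 1 call with age and 1 between aged AAV-B3GNT3 and young AAV-EGFP, both for Dll4, a Notch ligand, in excitatory neurons (1.18 and 1.63). Each is 5.56% of the tests, beside 8.35% and 1.52% of all gene tests. In excitatory neurons its group means of 0.374 to 1.17 CPM were far below its level in BECs (16.0 CPM). Without replicates 2 and 3 the first was 1.39 (adjusted p = 0.192). Of the 8 genes on this list, only Ets1, an endothelial transcription factor, passed the count filter in BECs. It was at 675 ± 80.6, 405 ± 298 and 300.4 ± 70.9 CPM (-0.73 with age, adjusted p = 0.459, -0.42 with AAV-B3GNT3, adjusted p = 0.765, and -1.14 for aged AAV-B3GNT3 against young AAV-EGFP, adjusted p = 0.736). Without aged AAV-EGFP replicates 2 and 3 the change with age turned to 0.13 (adjusted p = 0.932) and that with AAV-B3GNT3 was -1.30 (adjusted p = 0.0604), while that against young AAV-EGFP mice was called (-1.16, adjusted p = 0.0299, edgeR), as were Apln in astrocytes in the same comparison (-1.13, adjusted p = 0.0348) and Unc5b in OPCs with AAV-B3GNT3 (-2.45, adjusted p = 0.0471). With Dll4 in excitatory neurons (1.63, adjusted p = 0.0163), these are 3 of 25 tests between aged AAV-B3GNT3 and young AAV-EGFP and 1 of 25 with AAV-B3GNT3, where 2.92% and 0.595% of all gene tests were called. Dll4 in BECs was at 28.2 ± 10.7 CPM in young AAV-EGFP, 18.2 ± 8.14 CPM in aged AAV-EGFP and 1.65 ± 2.85 CPM (0 to 4.94) in aged AAV-B3GNT3 mice. It was below the count filter there and was not tested. With all libraries, none of the 22 list genes tested in BECs passed the test. The smallest adjusted p values with age were those of Plcg1 (-0.85, adjusted p = 0.294), Nos3, the endothelial nitric oxide synthase (0.81, adjusted p = 0.356), Rasip1 (0.62) and Vegfc (0.93), the last 2 with an adjusted p of 0.396 (edgeR). Without replicates 2 and 3 Nos3 turned to -0.35 and Rasip1 to -0.22, and Plcg1 was at -0.91 and Vegfc at 1.10 (adjusted p = 0.473 to 0.885).

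Class 3 semaphorins and plexins, many but not all of which share the neuropilins, gave 65 tests. With age there were 1 rise and 9 falls, and with AAV-B3GNT3 1 rise and 1 fall. Between aged AAV-B3GNT3 and young AAV-EGFP mice there were 1 rise and 5 falls. That is 15.4%, 3.08% and 9.23% of the tests, beside 8.35%, 2.15% and 1.52% of all gene tests over the 10 classes. Of the falls with age, 4 were in oligodendrocytes and 4 in astrocytes, where 20.4% and 11.9% of genes were called. Whether a change among these genes bears on the neuropilins was not tested. Leaving out aged AAV-EGFP replicates 2 and 3 removes no mouse from the comparison of aged AAV-B3GNT3 with young AAV-EGFP, so it does not check those calls. Of the 10 calls with age, 3 remained without aged AAV-EGFP replicates 2 and 3, Plxna2 and Sema3e in astrocytes and Sema3d in oligodendrocytes, and all 10 kept their sign. Neither call with AAV-B3GNT3 remained, and all 6 between aged AAV-B3GNT3 and young AAV-EGFP did, beside 2 further falls, of Sema3c in excitatory neurons and Plxna2 in macrophages. These 3, 0 and 8 of 70 tests stand beside 0.303%, 0.595% and 2.92% of all gene tests in that fit. In astrocytes Sema3e, a repulsive guidance ligand, went from 27.5 ± 4.06 to 8.24 ± 2.24 CPM with age (-1.76, adjusted p = 0.000779, edgeR) and was at 17.2 ± 3.01 CPM with AAV-B3GNT3, above aged AAV-EGFP (1.07, adjusted p = 0.0303, or 1.14 with an adjusted p of 0.164 without replicates 2 and 3). Sema3a, the ligand that binds neuropilin-1, fell with age in astrocytes (-1.38) and oligodendrocytes (-0.79) and rose in inhibitory neurons (0.73, adjusted p = 0.0295). In excitatory neurons it was lower in aged AAV-B3GNT3 mice than in aged AAV-EGFP mice (-0.57, adjusted p = 0.0386) and than in young AAV-EGFP mice (-0.84, adjusted p = 0.00512, edgeR). The plexin Plxna4, part of the same receptor, fell with age in astrocytes (-0.94) and oligodendrocytes (-1.32), and Sema3d fell in oligodendrocytes (-1.45, adjusted p = 0.00381). Plxna4 in oligodendrocytes had group means of 94.3, 38.2 and 63.8 CPM (young mice first, aged AAV-B3GNT3 mice last). Its level in excitatory neurons was 570 ± 77.8 CPM over the 9 mice. The part of free RNA in the changes of list genes in astrocytes and oligodendrocytes was not tested.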

How the data were processed

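Nuclei from 9 mice were measured by single-nucleus RNA-seq (10x 3′ v3.1). The values deposited by the authors are raw UMI counts per gene in each nucleus, without normalization, obtained with Cell Ranger on mm10. The submitters' processing notes name version 4.0.0 and the matrix headers 7.2.0, and whether intronic reads were counted is not given in the sources used here. No column of another sample was present (0 such columns).

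Limits were set at 200 and 5000 genes and 10% mitochondrial UMIs per nucleus, and likely doublets were removed at a preset rate of 0.8% per 1000 barcodes (5.07 to 8.21% per library). Counts were reduced with 2000 variable genes, leaving out the members and the listed pathway genes, to 15 principal components, and 20 nearest neighbours were clustered by the Leiden method (leidenalg 0.10.2, Python 3.11.15) at a resolution of 0.3. Of 23 clusters, those that held 3 or more markers of a class were named, where a marker had to be found in 10% of the nuclei and reach 2 times its median over clusters. Exceptions for related classes, and the rule on a cluster's leading genes, were set after the clusters were seen. Names were rebuilt here and can differ from those of the study. The 3437 unnamed nuclei were left out.

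Counts were summed per mouse and class for the 10 classes with at least 10 nuclei in every library. The filter on low counts was filterByExpr with a minimum of 10, followed by TMM scaling and the two-sided quasi-likelihood test of edgeR 4.0.16 (R 4.3.3), with the 9 libraries of a class in 1 fit. Class-by-group differences were fitted with limma 3.58.1 on within-mouse differences in log2 CPM. Free RNA was estimated per library and class from markers of excitatory neurons (of oligodendrocytes for neurons) relative to the profile of the whole library. It made up 7.89 to 16.3% of UMIs in excitatory neurons, 25.2 to 66.0% in BECs and 21.9 to 82.0% in macrophages. The scripts were tested on simulated data. DESeq2 1.42.0, other scalings, filters and clusterings, the replicate number as a block, free RNA subtraction and the omission of libraries were alternatives.

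All members were named in every class, with values per mouse in BECs, for calls and for ligands in their highest class. From the lists, genes called in BECs or the 3 with the smallest adjusted p in another class were named, and other called genes of a list were named after their values were seen. Members and lists were chosen with earlier results of these data known. The p-values measure the spread between mice. Replicate numbers were not used to pair the samples in the main fit. Same-numbered samples had correlations of -0.267 to 0.298 in their deviations, and 22 of 90 pairs were over 0.1. For replicate 1, young AAV-EGFP and aged AAV-B3GNT3 were correlated above 0 in every class (0.0562 to 0.298). Aged AAV-EGFP and aged AAV-B3GNT3 of that number were below 0 in every class (-0.267 to -0.0260). The cause was not tested.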

Additional observations from a re-analysis of the deposited data

Results flagged for a closer look

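A change was set against that of another class in the same mice, for pairs among 6 classes, which gave 237 tests of members. The difference between classes passed the test in 7 of them (limma, adjusted over the genes of each pair), and each involved oligodendrocytes. Each of the 7 also involved the aged AAV-EGFP mice, and leaving out 1 mouse gave 1 to 19 such differences. A share of all genes is given only for the pairs that held a call, so 7 of 237 is not set against a background. The shares of all genes called in these pairs were 11.5% and 4.38% for excitatory neurons with age and with AAV-B3GNT3, 7.68% for inhibitory neurons with age and 5.55% for astrocytes with age.

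With age, the log2 change of Nrp1 was set against that in oligodendrocytes. It was above it by 1.18 in excitatory neurons (adjusted p = 0.0115, limma), by 1.19 in inhibitory neurons (adjusted p = 0.0474) and by 1.07 in astrocytes (adjusted p = 0.0481). Nrp1 fell in oligodendrocytes by more than in the other class each time. The change of Nrp2 was lower in excitatory neurons than in oligodendrocytes, by -1.21 (adjusted p = 0.0489, limma), and lower in astrocytes, by -0.94 (adjusted p = 0.022).

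Angpt1 in excitatory neurons moved above its change in oligodendrocytes by 1.79 with age (adjusted p = 0.0118, limma) and below it by -1.65 with AAV-B3GNT3 (adjusted p = 0.0329). Angpt1 and Nrp1 in oligodendrocytes stood at 0.846 and 0.756 times the free RNA estimate, so their changes there were not separated from that of free RNA. With free RNA subtracted, too few UMIs remained to test 5 of the 7 differences, all those of Nrp1 and Angpt1. The 2 of Nrp2 were then at -1.58 (adjusted p = 0.144, limma) and -0.99 (adjusted p = 0.191). Both comparisons of Angpt1 share the aged AAV-EGFP mice.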

How the results depend on the processing

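Calls of members were 5 with age, 0 with AAV-B3GNT3 and 2 between aged AAV-B3GNT3 and young AAV-EGFP, with 15 steps in the class order and 7 class-by-group differences. No filter on low counts gave 14, 4 and 5 calls. Without aged AAV-EGFP replicates 2 and 3 there were 1, 2 and 5, with 0 steps, where 7 mice allow no p below 0.015625, and 15 differences, and with neuron sub-types also apart there were 2, 3 and 8 calls. Subtracting free RNA gave 2 calls with age, 1 between aged AAV-B3GNT3 and young AAV-EGFP and 0 differences, where 5 of the 7 could not be tested. Resolution 1.0 gave 1 with AAV-B3GNT3. Fitting only the groups compared gave 5 between aged AAV-B3GNT3 and young AAV-EGFP, and keeping doublets or lifting the gene limit gave 1 each. The replicate block gave 7, 0 and 2 calls and 8 differences. Apart from the fits without aged AAV-EGFP replicates 2 and 3, shares of all genes called are not given for these settings. A higher or lower count is therefore not a result about the members.

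Leaving out 1 mouse gave 1 to 15 calls with age, 0 to 5 with AAV-B3GNT3 and 0 to 3 between aged AAV-B3GNT3 and young AAV-EGFP, 0 to 16 steps and 1 to 19 differences. The highest counts of calls, 15, 5 and 3, came without aged AAV-EGFP replicate 1. With age 1 call remained without young replicate 3 and without aged AAV-EGFP replicate 3. Here too the shares of all genes called are not given, so these counts do not describe the members alone. Flt1 in pericytes ranged from 1.61 to 2.34 with age, Nrp1 from -0.87 to -0.50 in astrocytes, -0.71 to -0.44 in excitatory neurons and -2.07 to -1.27 in oligodendrocytes, and Nrp2 in oligodendrocytes from 0.48 to 0.88. Over all alternatives, the largest adjusted p was 0.732, 0.466, 0.192, 0.0446 and 0.672, in that order, and Nrp1 in oligodendrocytes was called in all 18 in which it was tested.

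Some directions in BECs turned. With age, Nrp2 was at -0.077 with doublets kept, and without aged AAV-EGFP replicates 2 and 3 Tek was at 0.55 and Tie1 at 0.34. With AAV-B3GNT3, Tek was then at -0.18 and Ptprb at 0.032. Leaving out 1 mouse gave a range of -0.59 to 0.21 for Tek with age (above 0 without young replicate 1, at 0.13, and without aged AAV-EGFP replicates 2, at 0.018, or 3). The range of Nrp1 with age was -1.14 (without aged AAV-EGFP replicate 1) to 0.90. With AAV-B3GNT3 it was -1.66 to 0.37 for Nrp1 and -0.49 to 0.25 for Tie1, both highest without aged AAV-EGFP replicate 1. Nrp2 between aged AAV-B3GNT3 and young AAV-EGFP ranged from -0.23 to 0.10, with 0.083 without young replicate 2 and the highest without aged AAV-B3GNT3 replicate 3. The cause was not tested. Depth was lowest in macrophages, with 49325 to 251577 UMIs per mouse, and BECs had 142743 to 304034.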

Other observations

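Choroid plexus epithelial cells, with 128 nuclei and 1 to 28 per library, were too few to test and held 133 UMIs of Vegfa, a pooled level of 142 CPM. A smooth muscle sub-cluster of 28 nuclei had 31 UMIs of Angpt1, or 413 CPM. An astrocyte sub-cluster of 387 nuclei led by Myoc, Fgd2 and Nrp2 had Nrp2 at 334 CPM and Angpt1 at 258 CPM. A BEC sub-cluster of 36 nuclei led by Bmx, a gene of arterial endothelium, had Flt1 at 2764 CPM, Ptprb at 2133 CPM and Tek at 537 CPM. Parvalbumin interneuron clusters had Vegfa at 42.7 to 50.9 CPM. These values are pooled over mice and not tested.

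The 3 genes whose levels followed each member most closely were found by Pearson's r of log2(CPM + 10) over 33 clusters, which share libraries and depth. For the receptors and the phosphatase all were at 0.948 or more. They were Adgrf5, Tbx3 and Nes for Flt1, Tead4, Trim16 and Cxcl12 for Kdr, Pglyrp1, Gm9946 and Tbx1 for Tek, Tbx1, Tmem252 and Gata2 for Tie1, and Bcl6b, Robo4 and Icam2 for Ptprb. Vegfa was closest to Kank1, Kifc3 and Phka1 (r of 0.894 to 0.927), Angpt1 to Nr2f1, Gm38604 and Slc7a2 (0.845 to 0.898) and Angpt2 to Plxna2, AU023762 and Wnt5a (0.712 to 0.763). For the co-receptors they were Btbd9, Acvr2a and Vps37b for Nrp1 (0.759 to 0.803) and Sh3bp5, Tanc1 and Sipa1l2 for Nrp2 (0.628 to 0.654).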
